A study of Gallus gallus with 4 samples.

Results

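Integrins and laminins form the link between a muscle fibre, or any other cell, and the matrix around it. The genes described here are the 27 rows of an expression table of 18973 rows whose single gene name begins with ITGA or ITGB, or with LAMA, LAMB or LAMC and a digit. They comprise 6 integrin alpha subunits, 6 integrin beta subunits, 4 genes that carry an integrin name without being a subunit, and 11 laminin chains. The table sets pectoralis (breast) muscle of native Isfahani chickens of Iran against that of Ross 708, a commercial broiler, with all birds sampled at post-hatch day 28. The labels name no treatment and no sex. Each breed was sequenced as 2 libraries, and each library pooled the RNA of 3 birds, so the spread between single birds is hidden. The authors combined the libraries into 1 FPKM value per breed, a level per length of transcript and per size of library, so the levels below carry neither an SD nor an n.

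An integrin is a pair of an alpha and a beta subunit that spans the cell membrane, binds matrix proteins outside and connects to talin, kindlin and the actin cytoskeleton inside. A laminin is a cross-shaped trimer of an alpha, a beta and a gamma chain and is the main organiser of basement membranes, the thin sheets that wrap each muscle fibre, capillary and nerve. In skeletal muscle the trimer that contains LAMA2 anchors the fibre through dystroglycan and through a laminin-binding integrin, and loss of LAMA2 causes a congenital muscular dystrophy in humans and mice. Integrins also feed into focal adhesion kinase and PI3K/Akt signalling, the pathway named in the title of the study.

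A difference was called when the q-value in the authors' deposited table, a p-value adjusted over the 11626 rows they tested, was at or under 0.05. Of the 27 genes, 19 were tested, and 4 of these were higher in Ross 708, namely ITGA4, ITGA6, ITGA8 and ITGB2. None was called higher in Isfahani. The called share of 21.1% stands beside 5.21% of all tested rows called in either direction and 3.07% called higher in Ross 708; 2.14% were called higher in Isfahani. At a q-value threshold of 0.01, 3 of the 19 were called higher in Ross 708, where 1.74% of all tested rows were, and 0 higher in Isfahani, where 0.989% were. At a threshold of 0.1 the counts were 5 and 0, beside 4.32% and 3.18% of all tested rows. By the authors' unadjusted p-values, 8 of the 19 were under 0.05 and 0 of those were higher in Isfahani, against 17% of all tested rows with such a p in either direction and 9.06% with one and a higher value in Ross 708. The log2 ratio used below is log2 of (Ross 708 FPKM + 1) over (Isfahani FPKM + 1), which is positive where Ross 708 was higher and understates the change of weakly expressed genes. Its median over the 19 genes was 0.58, and over all tested rows it was -0.034. The FPKM value was higher in Ross 708 for 18 of the 19, and for 46.5% of all tested rows. ITGB4 was among the 18 and moved below 0 when both breeds were brought to the same total over the whole table.

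**Figure D1:**
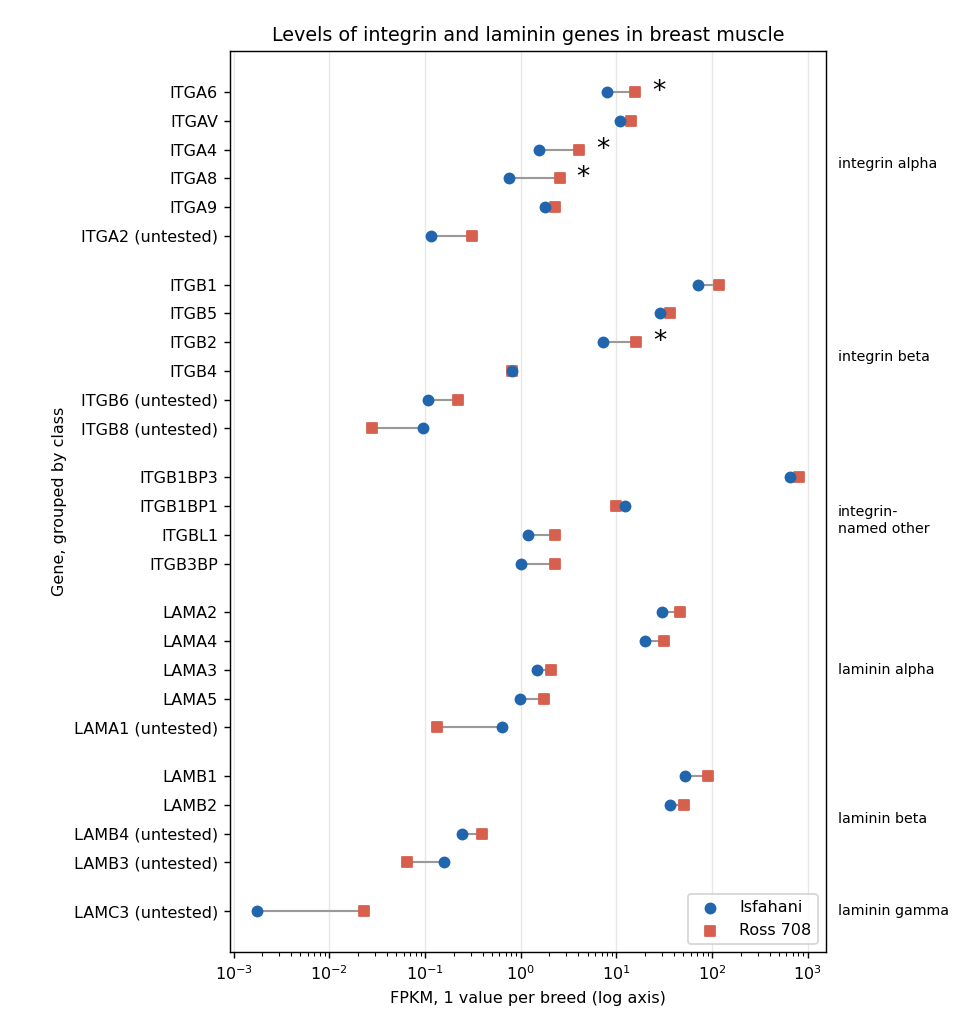
FPKM of 26 of the 27 genes on a log axis, 1 value per breed (circles Isfahani, squares Ross 708), grouped by class; a star marks a q-value at or under 0.05 in the authors' deposited table. The levels run from 0.00178 FPKM for LAMC3 to 802 FPKM for ITGB1BP3, and the 4 starred genes are integrin subunits.

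The integrin alpha subunits, which set what a receptor binds, held 3 of the 4 calls. ITGA8 binds the RGD motif of fibronectin and nephronectin and is known from kidney development and from contractile cells around vessels. It stood at 0.764 FPKM in Isfahani and 2.56 FPKM in Ross 708, with q = 0.0044 in the authors' deposited table. It was 3.35 times higher in Ross 708 on the FPKM scale, from a low level, and its log2 ratio was 1.01. ITGA4 binds VCAM1 and fibronectin and serves the entry of leukocytes into tissue. Its levels were 1.54 and 4.09 FPKM, for a log2 ratio of 1.00 and an FPKM ratio of 2.66, with the same q-value. ITGA6, which binds laminin, had levels of 7.90 and 15.7 FPKM, with a log2 ratio of 0.91 and an FPKM ratio of 1.99, called with q = 0.0145 in the authors' deposited table. These 3 log2 ratios lay above those of at least 96.3% of all tested rows.

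The other alpha subunits were not called. ITGAV, the partner of several beta subunits in receptors for vitronectin, fibronectin and latent TGF-beta, stood at 10.9 and 14.1 FPKM (q = 0.504 in the authors' deposited table). ITGA9, which binds tenascin C and VCAM1, stood at 1.81 and 2.26 FPKM (q = 0.693 in the same table). ITGA2, a collagen receptor subunit, stood at 0.116 and 0.307 FPKM and was not tested by the authors. ITGA11, another collagen receptor subunit, shares its row with an Ensembl identifier and is therefore not among the 27. That row stood at 2.07 and 2.64 FPKM (q = 0.854 in the authors' deposited table). The median log2 ratio of the 5 tested alpha subunits was 0.91, and it was 0.63 with the ITGA11 row added. RefSeq (GRCg7b, names alone) lists 7 further integrin subunits, ITGA1, ITGA2B, ITGA3, ITGA5, ITGA7, ITGAD and ITGB3, which are not analysed here. ITGA7 is the main laminin-binding alpha subunit of mature muscle fibres in mammals, so the account below leaves out a main receptor of the fibre.

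The order of the 6 alpha subunits, which leave out ITGA11 and those not analysed here, differed between the breeds. In Isfahani, ITGAV was the most abundant at 47.2% of the summed FPKM of the 6, followed by ITGA6 at 34.4%, ITGA9, ITGA4 and ITGA8. In Ross 708, ITGA6 came first at 40.2%, followed by ITGAV at 36.2%, ITGA4, ITGA8 and ITGA9. The share of ITGA4 was 6.70% in Isfahani and 10.5% in Ross 708, and that of ITGA8 was 3.32% and 6.56%. No share could be tested, because each rests on 1 value per breed.

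Among the beta subunits, ITGB2 was called. It is the beta subunit of the leukocyte integrins and is made by white blood cells. Its level was 7.28 FPKM in Isfahani and 16.2 FPKM in Ross 708, so that ITGB2 had a log2 ratio of 1.05. Its q-value of 0.00245 in the authors' deposited table was the smallest among the 19 tested genes. It is also the smallest q-value of any row there, a floor shared with TNC, FN1 and ACTN1 among others. The log2 ratio of ITGB2 was the highest of the 19 with 1 FPKM added to each value. With 0.1 FPKM added, those of ITGA8 (1.62) and ITGA4 (1.35) exceeded that of ITGB2 (1.14). ITGB1, the common partner of most alpha subunits and the most abundant integrin subunit here, stood at 70.6 and 117 FPKM, an FPKM ratio of 1.66. Its log2 ratio of 0.73 lay above those of 93.5% of all tested rows, but it missed the threshold (p = 0.0075, q = 0.09999 in the authors' deposited table).

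ITGB5, which pairs with ITGAV, stood at 28.5 and 36.6 FPKM (q = 0.578 in the authors' deposited table). ITGB4, the partner of ITGA6 in epithelial hemidesmosomes, stood at 0.807 and 0.821 FPKM (q = 0.992 in the same table). ITGB6 and ITGB8, which pair with ITGAV to release TGF-beta from its latent form, reached at most 0.219 and 0.0944 FPKM and were not tested. The beta order was the same in both breeds, ITGB1 first, then ITGB5, ITGB2, ITGB4, ITGB6 and ITGB8. ITGB1 made up 65.7% of the summed FPKM of the 6 beta subunits in Isfahani and 68.6% in Ross 708. The share of ITGB5 was 26.6% and 21.4%, and that of ITGB2 was 6.78% and 9.44%. In both breeds the level of ITGB1 exceeded the summed level of the 6 alpha subunits, which was 23.0 FPKM in Isfahani and 39.0 FPKM in Ross 708. Those 6 leave out ITGA11 and the alpha subunits not analysed here, so the comparison is partial.

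**Figure D2:**
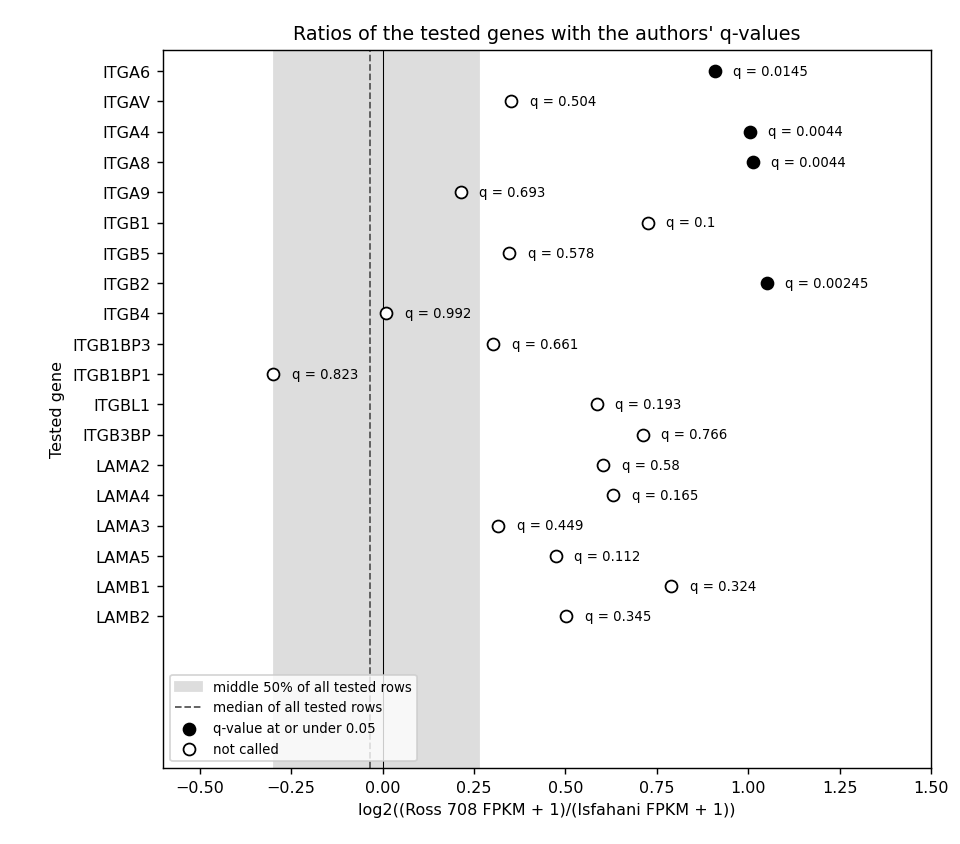
Log2 ratio of each of the 19 tested genes (filled where the q-value was at or under 0.05), with its q-value from the authors' deposited table; the grey band is the middle 50% of all tested rows, from -0.30 to 0.26, and the dashed line their median. On the deposited scale 16 of the 19 genes lie to the right of the band, and ITGB1BP1 is the 1 gene below 0.

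No laminin chain was called. The 6 tested chains all stood higher in Ross 708, also under the rescaling above. Their log2 ratios ran from 0.32 for LAMA3 to 0.79 for LAMB1, with a median of 0.55. LAMA2, the alpha chain of the fibre basement membrane, stood at 29.9 FPKM in Isfahani and 45.9 FPKM in Ross 708 (q = 0.58 in the authors' deposited table). LAMA4, the alpha chain typical of capillaries and other vessels, stood at 20.1 and 31.8 FPKM (p = 0.0174, q = 0.165 in the authors' deposited table). LAMA5, a chain of vessels and of the neuromuscular synapse, stood at 0.986 and 1.76 FPKM (p = 0.0088, q = 0.112 in the authors' deposited table). LAMA3, an epithelial chain, stood at 1.47 and 2.07 FPKM (q = 0.449). LAMA4 and LAMA5 were the 2 tested chains with an unadjusted p under 0.05.

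Of the beta chains, LAMB1 stood at 52.7 and 91.8 FPKM (q = 0.324 in the authors' deposited table). LAMB2, the beta chain enriched at the neuromuscular synapse, stood at 36.1 and 51.6 FPKM (q = 0.345). LAMC1, the gamma chain of nearly all muscle laminins, is named together with an Ensembl identifier and so is not among the 27. The row had 83.6 and 118 FPKM (q = 0.45 in the authors' deposited table), and its log2 ratio was 0.50. The 3 chains of the main fibre laminin, LAMA2, LAMB1 and LAMC1, therefore had FPKM ratios of 1.54, 1.74 and 1.42, and none of them was called.

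Within each laminin class the chains had the same order of level in both breeds. LAMA2 made up 56.2% of the summed FPKM of the 5 alpha chains in Isfahani and 56.2% in Ross 708. LAMA4 made up 37.9% and 38.9%, LAMA3 2.76% and 2.54%, and LAMA5 1.86% and 2.16%. LAMB1 made up 59.1% of the summed FPKM of the 4 beta chains in Isfahani and 63.8% in Ross 708, with LAMB2 at 40.5% and 35.9%. How far such shares vary between pools is unknown.

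**Figure D3:**
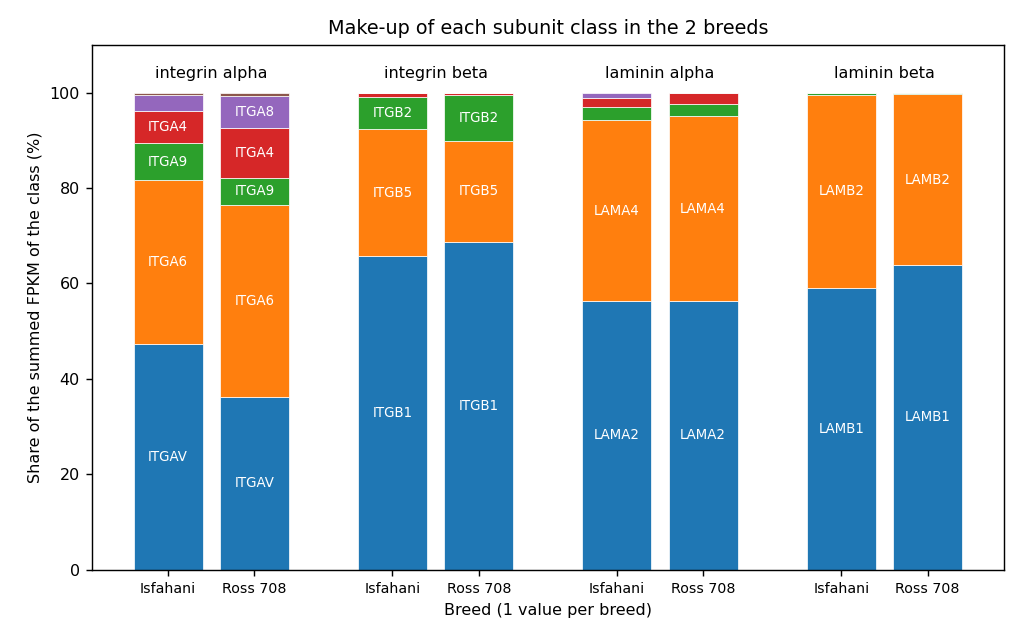
Share of each gene in the summed FPKM of its class, in percent, 1 bar per breed. ITGA6 passes ITGAV in Ross 708 (40.2% against 36.2%), while LAMA2 holds 56.2% of the alpha chains in both breeds.

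The untested laminin chains stood at low levels. LAMA1, the chain of early embryonic basement membranes, stood at 0.642 FPKM in Isfahani and 0.135 FPKM in Ross 708. LAMB3, a partner of LAMA3 in the laminin of skin, stood at 0.157 and 0.0642 FPKM. LAMB4 stood at 0.247 and 0.391 FPKM and LAMC3 at 0.00178 and 0.0232 FPKM. With ITGA2, ITGB6 and ITGB8 these make 7 of the 8 untested genes. None of the 8 exceeded 0.642 FPKM, 5 stood higher in Ross 708 and 3 lower, and no fold is given at such levels. A chain of low level and an abundant chain lie side by side in the genome. On chromosome 1 of galGal5, LAMB1 (14621477 to 14722354) is followed by LAMB4 (14725778 to 14766576), 3424 bases from the deposited end of the one to the deposited start of the other.

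The 4 integrin-named genes that are not subunits were not called. ITGB1BP3 encodes a muscle protein, also known as a nicotinamide riboside kinase, that was found as a partner of ITGB1. It was the most abundant of the 27 genes, at 650.2 FPKM in Isfahani and 802 FPKM in Ross 708 (q = 0.661 in the authors' deposited table). ITGB1BP1, a cytoplasmic protein that competes with talin for the tail of ITGB1, stood at 12.3 and 9.84 FPKM (q = 0.823 in the same table). It was the tested gene with a lower value in Ross 708. ITGBL1, a secreted protein with repeats like those of beta subunits, stood at 1.21 and 2.31 FPKM (p = 0.02285, q = 0.193 in the authors' deposited table). ITGB3BP, a centromere protein also called CENPR, stood at 1.01 and 2.29 FPKM (q = 0.766). Melusin, ITGB1BP2, a muscle partner of ITGB1, shares a row with RHOG. That row stood at 77.4 and 75.7 FPKM (q = 0.982 in the authors' deposited table) and is not among the 27.

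The deposited locus of some rows spans more than 1 gene. Of the 19 tested genes, 7 (ITGA4, ITGA9, ITGAV, ITGB4, ITGB1BP1, ITGB3BP and LAMB1) have the same start and end as at least 1 other row, so reads of a neighbour could enter their values. Strand is not stated in the sources used here. ITGA4 shares its locus with CERKL, which stood at 0.0188 and 0.0230 FPKM. LAMB1 shares its locus with DLD, which stood at 96.6 and 76.7 FPKM. ITGB3BP shares its locus with the row of EFCAB7 and PGM1, which stood at 4663 and 3514 FPKM. The values of these 7 genes are less certain for it.

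By position, 6 of the 27 genes lie on chromosome 7, and 3 of the 4 called genes are among them. These are ITGB2 (7175042 to 7186939), ITGA4 (13767733 to 13852740) and ITGA6 (17212616 to 17252867), while ITGA8 lies on chromosome 2 (20218012 to 20319220). Of all 404 tested rows on chromosome 7, 18 were called higher in Ross 708 (4.46%). The other genes of the group on this chromosome, ITGAV, ITGB5 and ITGB6, were not called.

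Pectoralis muscle contains many cell types besides fibres, and in such bulk RNA more cells of a type and more RNA per cell cannot be told apart. The labelled tissue was matched by high levels of desmin, DES (1971 and 1917 FPKM), and of ACTN2 (2234 and 2559 FPKM). The fast fibre genes TNNI2 and TNNT3 have no valid estimate in Isfahani, where they are listed at 0, so the summed level of the 5 fibre markers with a row, 139.6 and 25376 FPKM, cannot be compared between the breeds. Of these 5, DMD and PVALB were tested by the authors and not called. ACTA1 is listed at 0 in both breeds because it had too much signal, so it has no valid estimate in either. ACTA1, TNNI2 and TNNT3 were untested. Beside ITGB2 and ITGA4, 1 of 15 tested leukocyte markers (6.67%) was called higher in Ross 708, where 3.07% of all tested rows were. The 1 called was CSF1R, the macrophage growth factor receptor, at 20.0 and 40.4 FPKM. PTPRC, the pan-leukocyte surface protein, stood at 13.02 and 19.9 FPKM, an FPKM ratio of 1.53 where that of ITGB2 was 2.22 (q = 0.31 for PTPRC in the authors' deposited table). The T cell gene CD3E stood at 3.88 and 7.78 FPKM (q = 0.0816 in the same table). The 16 leukocyte markers with a row summed to 2661 FPKM in Isfahani and 3430 FPKM in Ross 708. Of these sums CD74, whose locus overlaps 14 other rows, alone gave 2138 and 2734. The median log2 ratio of the tested leukocyte markers was 0.45, and none of the 16 was listed at 0. Of the 15 tested, 13 stood higher in Ross 708. The 2 that stood lower were MPEG1 (65.5 and 58.9 FPKM) and CD8A (0.901 and 0.797 FPKM). The loci of both overlap other rows, as do those of BLB1, CD14, CD74 and LCP1, which stood higher in Ross 708. The part of leukocytes in the values of ITGB2 and ITGA4 was not tested.

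Beside ITGA8, 3 of 8 smooth muscle and pericyte markers (37.5%) were called higher in Ross 708, where 3.07% of all tested rows were. The 3 were ACTA2 (10.5 and 21.3 FPKM), whose locus overlaps 1 other row, MCAM (10.4 and 19.0 FPKM) and PDGFRB (5.08 and 10.03 FPKM). The list had a median log2 ratio of 0.64. Its sum, dominated by desmin, was 2035 and 2022 FPKM. Fibroblast markers gave 3 calls of 8 tested (37.5%), LUM (109 and 249 FPKM), DPT (31.8 and 64.1 FPKM) and FAP (12.6 and 25.4 FPKM). Their sum over 10 genes was 1910 and 3102 FPKM, with a median log2 ratio of 0.68. COL1A1 was listed at 0 in both breeds, on an untested row from position 4 to 396 of a contig not placed on a chromosome. Whether this 0 reflects its level is unknown.

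Beside ITGA6 and LAMA4, 0 of 13 tested endothelial markers were called at a q-value of 0.05, and 3 had an unadjusted p under 0.05 by the authors' test. Of all tested rows, 5.21% were called in either direction and 17% had such a p. All 13 stood higher in Ross 708, with a median log2 ratio of 0.35. The endothelial sum was 75.6 and 104 FPKM. PLVAP was listed at 0 in both breeds, on an untested row that, like that of COL1A1, is not placed on a chromosome. Whether this 0 reflects its level is unknown. CDH5, the junction protein of endothelium, stood at 14.9 and 21.0 FPKM. Of 5 tested Schwann cell and nerve markers 1 was called (20%), NCAM1 (16.0 and 35.9 FPKM), which muscle cells make too. The nerve list summed to 124 and 130 FPKM, its median log2 ratio was -0.20, and the Schwann cell genes SOX10 and S100B stayed at or under 0.315 FPKM. Of 7 satellite cell markers, MYOD1 (238 and 110 FPKM) alone was called (14.3%), higher in Isfahani, and PAX7 stood at 6.33 and 5.89 FPKM. The satellite cell list summed to 289 and 171 FPKM, sums dominated by MYOD1. Its median log2 ratio was -0.0065, with 3 of the 7 genes higher in Ross 708 and 4 lower. Thrombocyte markers summed to 12.1 and 22.6 FPKM, and F13A1 (7.92 and 18.0 FPKM) was the 1 call among 5 tested (20%). The locus of F13A1 overlaps 1 other row. Of adipocyte markers 4 of 6 (66.7%) were called higher in Ross 708. Among them were the fatty acid carrier FABP4 (86.7 and 319.8 FPKM) and the lipase LPL (6.03 and 32.7 FPKM). Also called were the lipid droplet protein PLIN1 (0.844 and 22.4 FPKM) and the regulator PPARG (1.98 and 6.79 FPKM). The adipocyte sum was 111 and 412 FPKM and the median log2 ratio 2.07. The part of these cell types in the integrin and laminin values was not tested.

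**Figure D4:**
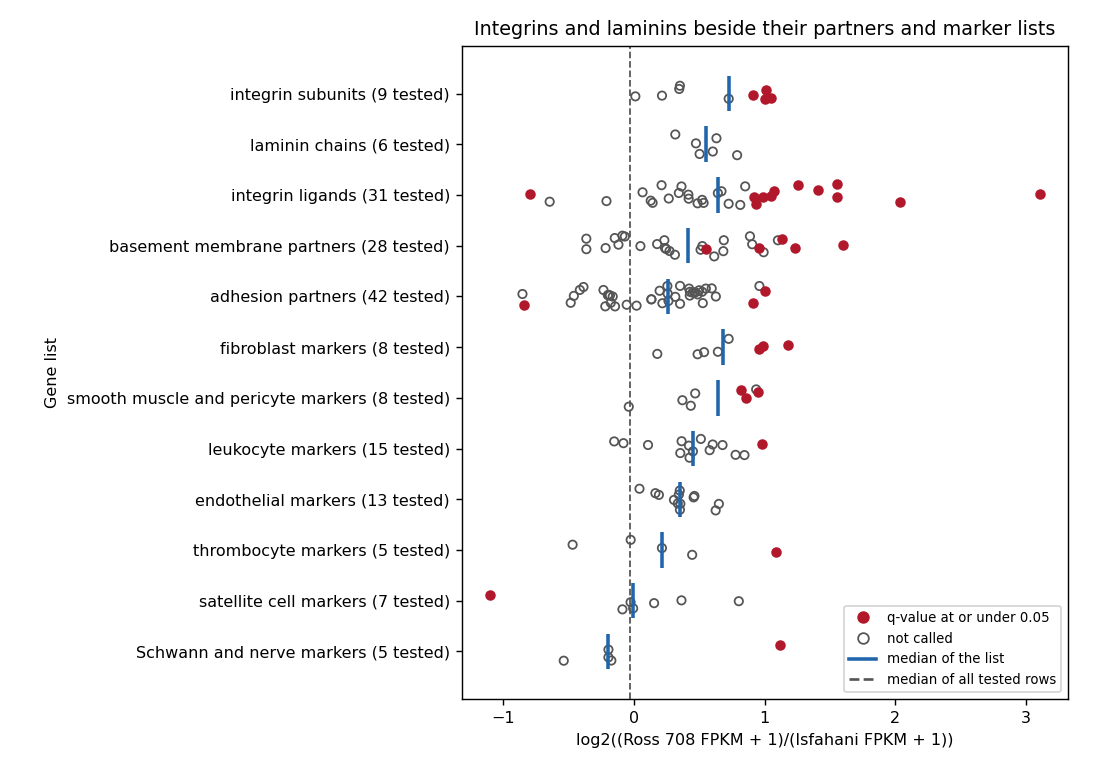
Log2 ratios of tested integrin subunits, laminin chains, their partners and cell type marker lists, 1 point per gene (red where the q-value was at or under 0.05), with the median of each list as a blue bar and the median of all tested rows as a dashed line. The medians are 0.73 for integrin subunits, 0.55 for laminin chains, 0.64 for integrin ligands and 0.41 for basement membrane partners. Among marker lists they are 0.68 (fibroblast), 0.64 (smooth muscle and pericyte), 0.45 (leukocyte) and 0.35 (endothelial). Lower still are thrombocyte (0.21), satellite cell (-0.0065) and Schwann and nerve markers (-0.20). The adhesion partners have a median of 0.26. The adipocyte markers (median 2.07) and muscle fibre markers are not drawn.

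Many genes listed as integrin ligands were higher in Ross 708. The list was drawn broadly and takes in TGFB2, LRRC32 and NRROS, for which binding by an integrin was not checked. Of 31 tested ligand genes, 11 were called with Ross 708 above Isfahani and 1 the other way, and their median log2 ratio was 0.64. The called share of 38.7% stands beside 5.21% of all tested rows. The matrix protein tenascin C, TNC, a ligand of ITGA9 and ITGAV receptors, had the largest ratio in the list, at 1.24 and 18.3 FPKM (q = 0.00245 in the authors' deposited table). CYR61, a matricellular protein bound by ITGAV receptors, stood at 26.6 and 112 FPKM, and fibronectin, FN1, a ligand of ITGA4, ITGA8 and ITGAV receptors, at 27.2 and 66.4 FPKM, both with the same q-value. The 1 call in the other direction was nephronectin, NPNT, a ligand of ITGA8, at 6.37 FPKM in Isfahani and 3.24 FPKM in Ross 708 (q = 0.0357 in the authors' deposited table). ITGA8 and NPNT, a receptor subunit and its ligand, were thus called in opposite directions. VCAM1, a ligand of ITGA4 and ITGA9, stood at 16.8 and 21.9 FPKM (q = 0.532), and vitronectin, VTN, a ligand of ITGAV with ITGB5, at 0.490 and 1.62 FPKM (q = 0.129).

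Of the ligands that were not called, the most abundant were the fibrillar collagens COL3A1 (957 and 1582 FPKM) and COL1A2 (304 and 476 FPKM), then periostin, POSTN (139 and 196 FPKM), a matrix protein bound by ITGAV receptors. They were followed by the microfibril protein FBN1 (42.004 and 56.5 FPKM), MFGE8 (44.8 and 38.6 FPKM) and TGFBI (28.8 and 52.8 FPKM), whose locus overlaps 4 other rows. The remaining calls higher in Ross 708 were COL6A1, COL6A2, COL6A3, CTGF, DPT, TGFB2, TGFB3 and THBS1. COL6A2, a chain of the microfibrillar collagen around fibres, stood at 125 and 369 FPKM, and TGFB3, a growth factor released from its latent form by ITGAV receptors, at 89.8 and 190 FPKM. The ligand list shares 5 genes with the fibroblast markers.

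Basement membrane partners of laminin gave 5 calls of 28, all higher in Ross 708, with a median log2 ratio of 0.41. The called share of 17.9% stands beside 5.21% of all tested rows. COL18A1, a collagen of basement membranes that carries heparan sulfate, stood at 16.3 and 51.5 FPKM, the collagen IV chains COL4A5 at 1.70 and 4.25 FPKM and COL4A6 at 1.18 and 4.12 FPKM, the peroxidase PXDN that crosslinks collagen IV at 11.6 and 26.7 FPKM, and FRAS1, a large basement membrane protein, at 0.640 and 1.40 FPKM. The main collagen IV chains COL4A1 (45.5 and 91.6 FPKM, q = 0.129) and COL4A2 (30.2 and 65.9 FPKM, q = 0.221) were not called in the authors' deposited table. COL4A1 and COL4A2 have the same deposited locus. The loci of the called COL18A1 and COL4A6 overlap 1 other row each. Nidogen 1, NID1, which ties laminin to collagen IV, stood at 105 and 195 FPKM (q = 0.0806). Dystroglycan, DAG1, the other laminin receptor of muscle fibres, stood at 90.4 and 86.1 FPKM (q = 0.956), and SPARC at 991 and 1121 FPKM (q = 0.887). The sarcoglycans SGCB (68.6 and 111 FPKM) and SGCD (31.9 and 46.3 FPKM) were not called.

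Of 42 tested genes for proteins that attach to integrins inside the cell or beside them in the membrane, 2 were called higher in Ross 708. Another 1 was called higher in Isfahani, and the median log2 ratio was 0.26. The called share of 7.14% stands beside 5.21% of all tested rows. ACTN1, the non-muscle actinin of focal adhesions, stood at 6.50 and 14.0 FPKM (q = 0.00245 in the authors' deposited table), and CAV1, the coat protein of caveolae, at 44.3 and 84.4 FPKM (q = 0.0369). TLN2, the talin of muscle attachment sites, was higher in Isfahani at 14.6 and 7.71 FPKM (q = 0.0233), while TLN1 stood at 16.6 and 26.2 FPKM (q = 0.155). TLN2 shares its locus with 2 other rows. Of the partners that were not called, the most abundant after ACTN2 were the Z-disc protein PDLIM5 (1118 and 1011 FPKM), the muscle caveolin CAV3 (221 and 297 FPKM), the tetraspanin CD81 (137 and 164 FPKM), NRAP of the myotendinous junction (90.4 and 79.4 FPKM) and the focal adhesion scaffold GIT1 (65.4 and 62.9 FPKM). The loci of ACTN2, CAV3, CD81 and NRAP overlap at least 1 other row each. The integrin-linked kinase ILK stood at 20.1 and 24.3 FPKM (q = 0.691), vinculin, VCL, at 21.0 and 28.6 FPKM (q = 0.405), and focal adhesion kinase, PTK2, at 21.0 and 23.2 FPKM (q = 0.906).

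The study looked at the PI3K/Akt pathway, and integrins entered it through the authors' own term analysis. In the authors' deposited table of human KEGG pathways for genes higher in Ross 708, ITGA4, ITGA6 and ITGA8 were counted in ECM-receptor interaction (17 genes, fold enrichment 9.06, Benjamini-adjusted p = 5.56e-09), in focal adhesion (24 genes, 5.40, 4.82e-09) and in PI3K-Akt signaling (21 genes, 2.82, 0.00163). Of the 21 genes of the PI3K-Akt term, 15 also belonged to the ECM-receptor term. They were the 3 integrin subunits, 8 collagen chains, and COMP, FN1, THBS1 and TNC. The other 6 were CSF1R, FGF16, PDGFRB, PGF, PIK3R3 and SGK1. PIK3R3, a regulatory subunit of PI3K, stood at 1.85 and 3.63 FPKM (q = 0.0369 in the authors' deposited table). ITGB2 was counted neither in the ECM-receptor term nor in the PI3K-Akt term. These terms were computed by the authors from the same calls, so they are no separate evidence for the integrin genes.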

How the data were processed

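Pectoralis RNA was extracted with Trizol, 3 birds were pooled per library, and 4 libraries (2 per breed) were made with a TruSeq kit and read as pairs of 150 bases, per the labels' protocols. The submitters' processing notes name FastQC 0.11.5, Trimmomatic, HISAT2, Cufflinks 2.2.1 and galGal5; for annotation and library scaling, nothing is given in the sources used here. The authors deposited 1 FPKM value per breed, a log2 fold change, a test statistic (a score, not used here), and p-values and q-values, per the file headers. The deposited term sheets give fold enrichment as a ratio and p-values. The columns are headed "Native" and "Commercial"; with Isfahani labelled native, Ross 708 is the group left for the other.

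Benjamini-Hochberg adjustment over the 11626 tested rows gave the deposited q-values to within 5.22e-07. The authors did not test 7307 rows for low signal, and 39 rows had too much signal and 1 failed. Depth is unknown. Low rows did not pile up at a few ratios, as no 0.01-wide bin held more than 0.709% of 2680 untested rows above 0. Each value combines 2 libraries, so this cannot tell how many reads a row rests on. With 1 value per breed no test could be fitted here, and calls are the authors'. Their p-values speak for 2 pools per breed, which may not be separate flocks. The pseudocount was 1 FPKM. Of several rows with 1 symbol, the tested row of highest mean FPKM was kept. Loci are printed as deposited; whether they count from 0 or 1 is not stated.

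Members and lists were chosen with earlier results of these data known. By the naming rule, every member is described, except 1 untested gene that is not reported here; of each partner list the calls and up to 6 others of the highest levels are named, and of marker lists the calls and the sum; further partners and markers (VCAM1, VTN, SGCD, TLN1, ILK, VCL, PTK2, PTPRC, CD3E, CDH5 and PAX7 among them) were chosen after their values were seen. Lists were matched by exact symbol: 45 of 59 adhesion partners, 34 of 40 basement membrane partners and 40 of 47 ligands had a row. Call counts and the Benjamini-Hochberg step were tested on simulated data. Computations used Python 3.11.15, pandas 2.3.3 and numpy 2.4.6. Alternatives were another pseudocount, q-value threshold, filter and scaling.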

Additional observations from a re-analysis of the deposited data

How the results depend on the processing

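The 4 calls higher in Ross 708 became 3 at a q-value threshold of 0.01, where ITGA6 was lost, 3 with a log2 ratio of at least 1, and 5 at a threshold of 0.1, where ITGB1 was added. The threshold of 0.1, and both other thresholds for the partner and ligand lists, were chosen after seeing the data. At 0.01 the calls higher in Ross 708 fell to 1 of the adhesion partners and 3 of the basement membrane partners. The calls higher in Isfahani fell to 0 in the adhesion partners and 0 in the ligands. Over all tested rows, 1.74% were called higher in Ross 708 at 0.01 and 0.989% higher in Isfahani. Rescaling to a common sum of all rows moved the median of all tested rows from -0.034 to -0.15, and that of alpha subunits to 0.78, of beta subunits to 0.40 and of laminin chains to 0.43. That sum includes rows listed at 0 in Isfahani for excess signal. With at least 1 FPKM in a breed the beta median was 0.73, since ITGB4 dropped out, and with the ITGA11 row, an alternative added after seeing the data, the alpha median was 0.63. With 0.1 in place of 1 FPKM added, 6 of the 19 log2 ratios moved by more than 0.1, all upward: ITGA8 to 1.62, ITGA4 to 1.35, ITGB3BP from 0.71 to 1.11, ITGBL1 from 0.58 to 0.88, LAMA5 from 0.47 to 0.78 and LAMA3 from 0.32 to 0.47. Of the 19 tested genes, ITGB4 alone changed sign, to -0.048 on rescaling. No paired analysis was possible because the table holds 1 value per breed, and for the same reason leaving out each pool was not run.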

Other observations

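In the authors' deposited table of GO terms for genes higher in Ross 708, 288 of 1095 terms held at least 1 of ITGA4, ITGA6, ITGA8 and ITGB2, and 202 of these were among the 474 terms with a Benjamini-adjusted p at or under 0.05. Extracellular matrix organization held all 4 (41 genes, fold enrichment 7.58, adjusted p = 2.75e-20 in the authors' deposited table). Leukocyte migration held ITGA4, ITGA6 and ITGB2 (21 genes, fold enrichment 3.42, adjusted p = 0.000124 in the authors' deposited table). The authors' sheet of terms for genes higher in Isfahani, with 254 terms, held none of the 27 genes.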
